A study of Mus musculus with 24 samples.

Results

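Uteri that had lost Ctcf in cells with an active progesterone receptor gene were compared with floxed littermate uteri, all collected 6 h after an injection of progesterone. The comparison used 4 knockout libraries, numbered 4, 5, 6 and 8, and 4 floxed libraries, numbered 1, 2, 7 and 9, which are 8 of the 24 libraries of the series. All expressed genes were described: 14284 of the 22943 genes in the deposited table reached 1 RPKM (reads scaled by gene length and by library depth) in at least 4 of the 24 libraries. Knockouts had the genotype PgreCre+;Ctcf-f/f (cKO) and controls the genotype Ctcf-f/f without Cre. All 8 libraries came from female C57bl/6 mice aged 21 days, given 0.5 mg progesterone in 0.05 ml of sesame oil under the skin, and were made in the same library batch. The other 16 libraries, 8 knockout and 8 floxed, came from mice given oil alone (vehicle). Cre came from the progesterone receptor gene Pgr and was present in knockouts only, so loss of Ctcf and the Cre allele itself cannot be told apart. Whether any libraries shared an animal is not in the labels, and p-values therefore reflect no more than sample-to-sample spread, which may be technical.

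CTCF is a zinc finger protein that binds DNA and, by halting the ring complex cohesin, holds the ends of chromatin loops, which places enhancers within or beyond reach of promoters. Progesterone acts in the uterus through its nuclear receptor, a transcription factor encoded by Pgr, in epithelium, stroma and muscle. Its epithelial targets send paracrine signals, among them Indian hedgehog and amphiregulin, that act on the stroma and prepare it for an implanting embryo. At 21 days the mouse uterus is immature, its ovaries secrete little hormone, and uterine glands are still forming.

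Estimated depth ran from 51200000 to 81400000 reads in the knockout libraries and from 63000000 to 71800000 reads in the floxed libraries. Floxed library 7 stood apart in oviduct markers, which summed to 570 RPKM against 107 to 150 RPKM in the other 7 libraries. Ovgp1, the oviduct glycoprotein gene, stood at 380 RPKM there and at 0.156 RPKM or less elsewhere. In knockout library 8 the summed level of 16 squamous epithelium markers was 77.2 RPKM, against 22.4 to 36.7 RPKM in the other knockouts and 10.8 to 15.4 RPKM in floxed libraries. Floxed library 1 had the highest sum of adipose markers, 1010 RPKM against 161 to 612 RPKM elsewhere. Counts given below were therefore also made without floxed library 7 and knockout library 8. Library values are listed in the order 1, 2, 7 and 9 for floxed and 4, 5, 6 and 8 for knockout uteri. The batch-corrected values include some below 0. Of 3783 genes whose lowest value was shared between libraries of the batch that holds these 8, that value was above 0 in 1472 and below 0 in 1997, as if a constant had been added to the gene within a batch. Such a shift alters the fold changes of low genes, but not differences in RPKM or the order of these 8 libraries.

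Ctcf stood at 25.1, 26.0, 25.4 and 27.5 RPKM in floxed libraries and at 10.7, 9.17, 10.9 and 9.04 RPKM in knockout libraries. Every knockout library lay below every floxed library, and knockouts kept 38.3% of the floxed mean (exact two-sided permutation p = 0.0286, the smallest that 4 against 4 can give). In whole tissue, fewer cells of a type and less RNA per cell cannot be told apart. Stag1, which encodes a cohesin subunit, rose from 14.7 ± 0.827 to 22.5 ± 2.22 RPKM (SD, n = 4 each; log2 fold change 0.59 ± 0.07 SE, adjusted p = 1.5e-06). Stag2, its paralogue in cohesin, rose less, by 0.29 ± 0.08 (adjusted p = 0.0143, and 0.0596 without knockout library 4). Of 17 tested genes of the loop machinery these 2 were higher and Ctcf alone was lower. Over all tested genes 12.3% were higher and 7.06% lower. The median log2 fold change over the 17 was 0.02, beside 0.03 over all tested genes.

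Pgr and Esr1 differed little after progesterone. Floxed uteri had Pgr at 11 ± 3.29 RPKM and knockouts at 13.4 ± 3.6 RPKM (SD, n = 4 each, exact permutation p = 0.371). Under vehicle Pgr was lower in knockouts, 23.2 ± 3.84 against 39.5 ± 4.18 RPKM (limma log2 fold change −0.77 ± 0.14, adjusted p = 0.000235). Its genotype difference thus changed with treatment, by 1.04 ± 0.24 (limma adjusted p = 0.0197). Esr1, the estrogen receptor alpha gene, was 29.7 ± 1.56 and 34.5 ± 2.03 RPKM (exact permutation p = 0.0286, the smallest possible, but adjusted p = 0.0555 in the fit over all genes). Of 12 tested steroid receptor genes 3 rose and 0 fell, beside 12.3% higher and 7.06% lower among all tested genes. Under vehicle 1 rose and 4 fell, and the difference with treatment was called for 3. After progesterone the membrane-associated Pgrmc1 rose by 0.32 ± 0.10 on the log2 scale (adjusted p = 0.0269). Paqr6, a membrane progestin receptor gene, rose by 0.91 ± 0.25 (adjusted p = 0.0116). The call of Pgrmc1 was lost without knockout library 5 or 8, or floxed library 2 or 9 (adjusted p from 0.0663 to 0.0835), and that of Paqr6 without floxed library 7 and knockout library 8 together (adjusted p = 0.061). Without floxed library 2, 1 receptor gene fell.

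Across all genes, 2767 of 14284 differed between genotypes after progesterone (19.4%; limma, Benjamini-Hochberg adjusted p under 0.05), and 4553 had an unadjusted p under 0.05 (31.9%). More genes were higher in knockouts, 1758 (12.3%), than lower, 1009 (7.06%). These shares are the background for the counts given for each gene list below. Quantile normalization, which forces 1 distribution on all libraries, gave 1470 higher and 1319 lower, so that 52.7% rather than 63.5% of called genes were higher. At least 2-fold changes were fewer, 337 higher (2.36%) and 178 lower (1.25%). For 3064 genes (21.5%) the 4 knockout and 4 floxed values did not overlap at all, and this held for 74.9% of the higher and 85.9% of the lower called genes. Without floxed library 7 and knockout library 8 there were 1496 higher and 739 lower genes.

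Among the 12 lowest log2 fold changes were genes that stood far higher in floxed uteri after progesterone than under vehicle. Fst encodes follistatin, a secreted protein that binds and blocks activins. It lies on chromosome 13 from 114452290 to 114458951 (GENCODE M21 on GRCm38, minus strand). Its level was 28.3, 20.4, 30.3 and 32.6 RPKM in floxed libraries and 1.39, 1.24, 1.77 and 1.62 RPKM in knockouts. The knockout values lay within the range of the 8 knockout vehicle libraries, 0.486 to 2.48 RPKM, while floxed vehicle libraries ranged from 2.53 to 5.36 RPKM. The fall was 14-fold on the log2(value + 0.5) scale (log2 fold change −3.81 ± 0.25, adjusted p = 5.86e-10).

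Tac2, which encodes the tachykinin neurokinin B, had the smallest p of all tested genes for a genotype difference that changed with treatment. It stood at 4.89, 5.19, 4.57 and 5.99 RPKM in floxed libraries and at 0.465, 0.452, 0.092 and 0.404 RPKM in knockouts. All 16 vehicle libraries were at 0.276 RPKM or below, so the 4 floxed progesterone libraries stood alone. Its log2 fold change was −2.75 ± 0.15 after progesterone (adjusted p = 4.87e-11) and −0.13 under vehicle (adjusted p = 0.403), and the difference between these was −2.62 ± 0.19 (adjusted p = 1.87e-08). Areg encodes amphiregulin, a ligand of the EGF receptor. It was 8.1, 5.68, 7.65 and 7.1 RPKM in floxed libraries and 1.22, 1.82, 1.6 and 2.08 RPKM in knockouts, again with no overlap. Under vehicle the order was the opposite, with at most 0.059 RPKM in floxed and at least 0.134 RPKM in knockout libraries. Pate4, a small secreted protein gene, lay between 1.07 and 3.9 RPKM in floxed libraries and at 0.0999 RPKM or below in every knockout library and every vehicle library.

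Ripor2, which encodes an inhibitor of the small GTPase RhoA, was tightly grouped. Its values were 12.7, 12.4, 11.8 and 11.9 RPKM in floxed libraries and 2.13, 1.99, 1.66 and 2.17 RPKM in knockouts, against 1.04 to 2.91 RPKM in floxed vehicle libraries. It fell 5.12-fold (adjusted p = 3.68e-09). Minar1, a membrane protein gene, stood at 2.65, 2.89, 2.72 and 2.6 RPKM in floxed and 0.401, 0.306, 0.0654 and 0.105 RPKM in knockout libraries. It was lower in knockouts under vehicle too, by 0.71 on the log2 scale against 2.19 ± 0.14 after progesterone. Slc2a3, which encodes the glucose transporter GLUT3, dropped from 107, 76.3, 87.3 and 85.4 RPKM to 26.0, 18.2, 8.9 and 13.7 RPKM. Its vehicle levels differed as well, and the difference between the genotype differences did not pass (adjusted p = 0.208).

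**Figure D1:**
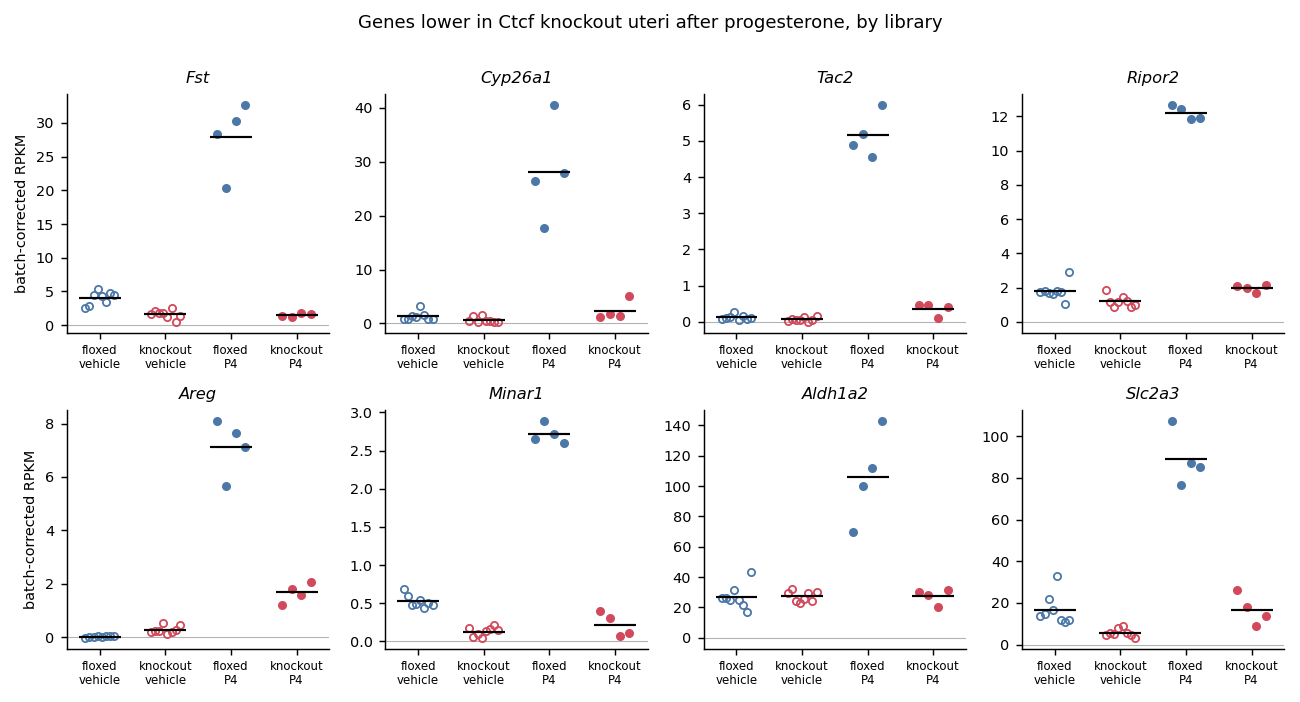
Batch-corrected RPKM (vertical axis) of 8 genes lower in knockouts, by group on the horizontal axis (P4, progesterone); open circles are vehicle libraries (n = 8 each), filled circles progesterone libraries (n = 4 each), and bars are means. For Tac2 the 4 floxed progesterone libraries lie between 4.57 and 5.99 RPKM and all others at 0.465 RPKM or below.

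Other genes at the low end had known roles in metabolism, secretion or adhesion. Hsd11b2 encodes the enzyme that inactivates glucocorticoids, and among called genes it had the largest loss in RPKM, from 161 ± 20.4 to 27.6 ± 9.42 RPKM. Ttr, the thyroxine carrier transthyretin, was between 2.93 and 4.53 RPKM in floxed libraries and at most 0.203 RPKM in knockouts. Acod1, which makes itaconate, fell from 4.14 to 8.01 RPKM in floxed libraries to between 0.00672 and 1.65 RPKM. Adgrg2, an adhesion receptor gene, fell 4.84-fold, and Cldn2, the gene of a pore-forming claudin, fell 4.98-fold. Cxcl15, a gland-expressed chemokine gene also called lungkine, fell 5.59-fold and was nearly as low under vehicle (log2 fold change −2.48 ± 0.27 and −2.29). Tgm2, the gene of tissue transglutaminase, fell from 175 ± 12.6 to 90.0 ± 10.8 RPKM. Pdlim3, which encodes a muscle Z-disc protein, fell from 190 ± 20.8 to 111 ± 28.3 RPKM.

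Fxyd4, a regulator of the sodium pump, and Hdc, the histamine-forming enzyme, also showed large losses in RPKM, with less certain calls. Fxyd4 was 141, 124, 217 and 191 RPKM in floxed and 48.7, 30.7, 27.1 and 55.7 RPKM in knockout libraries, with no overlap (adjusted p = 0.0339). That call was lost without knockout library 5 or 6, or floxed library 7 or 9 (adjusted p from 0.0754 to 0.0825). Hdc was 106, 110, 214 and 212 RPKM in floxed and 51.7, 72.2, 73.6 and 87.9 RPKM in knockout libraries (adjusted p = 0.0328), a call lost without knockout library 4, 5 or 6, or floxed library 7 or 9 (adjusted p from 0.0528 to 0.104). The 2 floxed libraries with the higher Hdc values, 7 and 9, also had the higher Fxyd4 values. Both genes were lower in knockouts under vehicle too. There Fxyd4 averaged 82.6 RPKM in floxed and 7.66 RPKM in knockout libraries (limma adjusted p = 2.27e-06). Hdc averaged 62.6 and 20.5 RPKM (limma adjusted p = 4.13e-05). A change with treatment was called for neither (limma adjusted p = 0.323 and 0.665).

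Promoters were searched for a short CTCF core motif, since CTCF is the protein that was removed. The motif was the letters CCA, 2 free bases, AG, 2 free bases and GGC, sought on both strands in the 250 bases before each RefSeq gene start (GRCm38.p6), and 11225 of the tested genes had a promoter in the table. Of 329 tested genes with a match, 46 (14%) were lower in knockouts after progesterone and 36 (10.9%) higher. Among the 10896 genes with a promoter and no match, 6.68% were lower and 12.1% higher. Counted by promoter, a match stood in 51 of 991 promoters of lower genes (5.15%), 2.07% of those of higher genes, 2.39% of those of all tested genes and 2.07% of all 32851 promoters. Under vehicle 62 of the 329 genes (18.8%) were lower, beside 11.2% of the genes with no match. Of the 46 genes, 44 had knockout values wholly below the floxed values, as did 85.9% of all lower genes, and 36 were also lower under vehicle, as were 53.7% of all lower genes. A match is a description of letters and does not show that CTCF was bound there.

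The 5 lower genes with a match and the smallest adjusted p were, chosen after their values were seen, Minar1, Def8, Slc35b2, Adprhl2 and Cxcl15. Def8, a gene of vesicle positioning in osteoclasts, stood at 7.98, 12.6, 10.6 and 11.2 RPKM in floxed and at 3.2, 2.54, 2.94 and 3.5 RPKM in knockout libraries (log2 fold change −1.64 ± 0.15, adjusted p = 3.8e-08). Slc35b2 encodes the Golgi transporter of the sulfate donor PAPS, and it fell from 34.1 ± 0.901 to 17.1 ± 2.04 RPKM. Adprhl2, which encodes an enzyme that removes ADP-ribose from proteins, fell from 20.4 ± 1.28 to 9.39 ± 1.48 RPKM. In none of these 3 did the groups overlap, and all 3 were lower under vehicle too (log2 fold changes −1.12, −0.71 and −0.82). Their promoters are printed with that of Areg and Tac2, the 2 genes with the smallest p for a change with treatment, to show where the match lies and that Areg and Tac2 hold none in this window. Def8 has a second RefSeq promoter, at chr8:123442706-123442955, which holds no match and is not printed. Each sequence is 5′ to 3′ on the gene's strand and ends at the base before the RefSeq start, and capitals mark matches to the CTCF core or to the TATA box letters TATAAA.
Minar1 chr9:89622987-89623236 (minus strand): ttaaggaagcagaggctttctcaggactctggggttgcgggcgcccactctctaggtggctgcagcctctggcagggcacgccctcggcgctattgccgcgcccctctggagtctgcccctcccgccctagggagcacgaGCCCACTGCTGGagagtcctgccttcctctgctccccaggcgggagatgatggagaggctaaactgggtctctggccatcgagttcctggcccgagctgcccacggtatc
Def8 chr8:123443009-123443258 (plus strand): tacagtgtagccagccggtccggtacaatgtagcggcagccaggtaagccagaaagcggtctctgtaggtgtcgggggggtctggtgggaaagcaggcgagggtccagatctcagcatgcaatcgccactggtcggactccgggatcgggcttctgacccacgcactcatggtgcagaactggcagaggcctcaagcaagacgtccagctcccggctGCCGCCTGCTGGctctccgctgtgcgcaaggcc
Slc35b2 chr17:45563686-45563935 (plus strand): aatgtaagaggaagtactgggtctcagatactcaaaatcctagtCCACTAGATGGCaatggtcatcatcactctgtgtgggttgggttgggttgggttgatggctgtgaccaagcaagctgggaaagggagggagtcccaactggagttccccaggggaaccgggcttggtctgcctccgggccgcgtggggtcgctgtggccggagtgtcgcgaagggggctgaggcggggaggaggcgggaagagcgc
Adprhl2 chr4:126321704-126321953 (minus strand): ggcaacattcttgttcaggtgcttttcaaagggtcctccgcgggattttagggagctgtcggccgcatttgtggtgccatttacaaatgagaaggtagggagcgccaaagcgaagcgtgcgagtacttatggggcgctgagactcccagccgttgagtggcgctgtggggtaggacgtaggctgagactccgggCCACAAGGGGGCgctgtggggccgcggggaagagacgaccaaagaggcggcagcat
Cxcl15 chr5:90794284-90794533 (plus strand): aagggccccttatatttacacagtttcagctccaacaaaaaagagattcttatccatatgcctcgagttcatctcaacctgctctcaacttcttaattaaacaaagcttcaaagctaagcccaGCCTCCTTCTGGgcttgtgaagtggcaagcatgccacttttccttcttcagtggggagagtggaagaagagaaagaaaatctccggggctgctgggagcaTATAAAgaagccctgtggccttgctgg
Areg chr5:91139349-91139598 (plus strand): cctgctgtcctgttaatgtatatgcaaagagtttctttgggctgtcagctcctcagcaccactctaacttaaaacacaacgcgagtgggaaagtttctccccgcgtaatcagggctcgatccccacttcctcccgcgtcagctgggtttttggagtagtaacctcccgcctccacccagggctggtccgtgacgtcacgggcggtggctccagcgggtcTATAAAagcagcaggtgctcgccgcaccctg
Tac2 chr10:127724228-127724477 (plus strand): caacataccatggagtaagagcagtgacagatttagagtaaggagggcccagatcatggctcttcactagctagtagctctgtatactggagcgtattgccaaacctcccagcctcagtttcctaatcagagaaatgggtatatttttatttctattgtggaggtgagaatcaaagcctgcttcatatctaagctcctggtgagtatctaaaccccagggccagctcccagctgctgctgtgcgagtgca
The CTCF core match began 110 bases before the start in Minar1, 33 in Def8, 206 in Slc35b2, 56 in Adprhl2 and 127 in Cxcl15. The letters TATAAA began 31 bases before the start in Areg and 27 in Cxcl15. They stood in 7.87% of promoters of lower genes and 6.56% of promoters of tested genes. The receptor element ACANNNTGT is a loose form of the site shared by the progesterone and glucocorticoid receptors. It stood in 5.05% of promoters of lower genes, 4.2% of higher genes and 3.78% of tested genes, and in none of the printed windows. For lower genes whose genotype difference was also called below 0 against vehicle, it stood in 4 of 128 promoters (3.12%). The shares for genes lower and higher under vehicle were 4.63% and 4.34%. The GLI site GACCACCCA, at which hedgehog signalling ends, stood in 0 of the 991 promoters of lower genes and 0.176% of promoters of tested genes.

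Genes of retinoic acid, the vitamin A signal made by ALDH1A enzymes and broken down by CYP26 enzymes, moved in opposite directions. Of 17 tested, 6 rose and 2 fell, with a median log2 fold change of 0.26, while under vehicle 6 rose and 1 fell. Without floxed library 7 and knockout library 8, 4 rose and 2 fell. Aldh1a2, the synthesizing enzyme of stroma, was 69.9, 99.7, 112 and 143 RPKM in floxed and 29.9, 27.9, 20.2 and 31.6 RPKM in knockout libraries. All knockout values lay below all floxed values, and under vehicle the medians were 25.5 and 27.6 RPKM. Its genotype difference was −1.91 ± 0.22 after progesterone (adjusted p = 1.19e-06), and the change with treatment was −1.97 ± 0.26 (adjusted p = 0.000149). The degrading enzyme gene Cyp26a1 went from 26.4, 17.7, 40.5 and 27.8 RPKM to 1.25, 1.76, 1.38 and 5.1 RPKM.

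The other synthesizing enzymes went the other way. Aldh1a3 was 6.89, 3.36, 4.77 and 3.42 RPKM in floxed and 31.5, 36.7, 34.2 and 30.0 RPKM in knockout libraries, with no overlap. It was apart under vehicle by a similar amount (log2 fold change 2.64, against 2.77 ± 0.59 after progesterone). Aldh1a1 rose 2.75-fold, from 20.8 ± 6.69 to 56.5 ± 7.26 RPKM (adjusted p = 3.22e-07), and by 1.11 on the log2 scale under vehicle.

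In the EGF family, whose ligands pass growth signals through EGFR and its relatives, 4 of 10 tested genes fell and 0 rose. The median was −0.46. Besides Areg these were Hbegf, Egfr and Errfi1. Under vehicle 1 member rose and 3 fell. Hbegf encodes the ligand heparin-binding EGF, and was 13.1, 7.95, 8.85 and 6.92 RPKM in floxed and 3.94, 3.96, 4.11 and 4.97 RPKM in knockout libraries. Its log2 fold change was lower after progesterone than under vehicle, by a difference of −0.78 ± 0.19 (adjusted p = 0.023). Egfr, the receptor, fell from 10.6 ± 1.27 to 6.89 ± 1.72 RPKM (adjusted p = 0.00162, and 0.0529 in a fit of the 8 libraries alone). Errfi1, a feedback inhibitor of EGFR, fell by 0.92 ± 0.26 (adjusted p = 0.0164, and 0.058 without knockout library 6). Without knockout library 8 or without floxed library 7, 1 member was higher.

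Of the activin and follistatin pathway 3 of 17 tested genes fell and 0 rose, with a median of −0.09, and 6 fell under quantile normalization. The 3 were Fst, Tgfbr3 and Bambi. Under vehicle 3 members rose and 4 fell. Tgfbr3, the betaglycan co-receptor for inhibin and TGF-beta, was 76.6, 74.5, 64.8 and 61.1 RPKM in floxed and 44.7, 37.4, 28.1 and 30.2 RPKM in knockout libraries. It was lower only by 0.17 under vehicle (adjusted p = 0.276), and the change with treatment was −0.82 ± 0.18 (adjusted p = 0.0152). Bambi, a decoy receptor of this family, fell from 9.15 ± 0.913 to 5.27 ± 0.882 RPKM. Without knockout library 8, or floxed library 1 or 9, 1 member of this pathway rose. Of 16 tested hedgehog genes 4 fell and 0 rose, with a median of −0.22. Under vehicle 6 of them fell and 0 rose (median −0.12), and the difference with treatment was called for 4. Gli3, a transcription factor of the pathway, fell by 0.65 ± 0.15 and Boc, a co-receptor, by 0.64 ± 0.12 (adjusted p = 0.00254 and 0.000663). For both, the genotype difference changed with treatment (adjusted p = 0.0104 and 0.0238). Hhat, which attaches palmitate to the ligands, fell by 0.41 ± 0.11 (adjusted p = 0.00857, and 0.0509 in the fit of 8 libraries), and the inhibitor gene Sufu by 0.22 ± 0.06, a call lost without knockout library 8 or floxed library 2 (adjusted p = 0.0558 and 0.0715). Without floxed library 7 and knockout library 8 together, 2 hedgehog genes fell.

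BMP genes, which control stromal differentiation, showed few calls: of 19 tested, 2 rose and 3 fell, with a median of 0.01, beside 12.3% higher and 7.06% lower among all tested genes, and 4 rose without floxed library 1. The ligand gene Bmp2 rose from 5.38 ± 1.56 to 9.41 ± 0.871 RPKM. The antagonist gene Nog fell from 1.7 ± 0.514 to 0.731 ± 0.146 RPKM, the receptor gene Bmpr1a by 0.22 ± 0.06 (adjusted p = 0.00864, and 0.105 in the fit of 8 libraries), and Bmp4 by 0.76 ± 0.24. The call of Bmp4 (adjusted p = 0.0322) was lost without knockout library 6 or 8, or floxed library 1, 7 or 9 (adjusted p from 0.0506 to 0.103). Without floxed library 1, 4 genes of the pathway rose.

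Among 15 tested genes of insulin-like growth factor signalling, 3 rose and 1 fell, with a median of 0.03. The shares over all tested genes were 12.3% higher and 7.06% lower. Igfbp2, a carrier protein of these factors, was 3.93, 5.52, 4.61 and 3.6 RPKM in floxed and 56.0, 38.6, 32.9 and 98.4 RPKM in knockout libraries. The fetal growth factor gene Igf2 was 40.4, 35.9, 31.3 and 27.1 RPKM in floxed and 105, 107, 108 and 95.5 RPKM in knockout libraries. Neither gene overlapped between groups, and both were as high in vehicle knockouts, where their medians were 72.9 and 109 RPKM. Irs1, an adaptor of the receptor, rose by 0.49 ± 0.13 (adjusted p = 0.0119, but 0.0589 without floxed library 9 and 0.0859 in the fit of 8 libraries). Igf1 fell by 0.57 ± 0.19 (adjusted p = 0.0337), a call lost without knockout library 5 or 6, or floxed library 2, 7 or 9 (adjusted p from 0.0572 to 0.138). Under vehicle Igf1 was higher in knockouts, by 0.38 (adjusted p = 0.0386), and the 2 differences were unequal (adjusted p = 0.0243).

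A list of 34 genes known to respond to progesterone held 13 that fell and 4 that rose, with a median of −0.43. Under vehicle 11 fell and 6 rose (median −0.14), and the difference with treatment was called for 8. After progesterone the list summed to 1070 to 1300 RPKM in floxed and 697 to 823 RPKM in knockout libraries. Members not yet named include Gata2, a transcription factor that works with the receptor, which fell from 118 ± 12.7 to 90.0 ± 8.66 RPKM (adjusted p = 0.0114, and 0.0603 in the fit of 8 libraries), and Hoxa11, a patterning gene of stroma, which fell from 108 ± 12.6 to 68.6 ± 4.89 RPKM. Sgk1, a kinase gene of ion transport, fell by 0.80 ± 0.24 (adjusted p = 0.0223), a call lost without knockout library 5 or 6, or floxed library 1, 7 or 9 (adjusted p from 0.0555 to 0.0777). The 4 that rose were Bmp2, Wnt4 (2.14 ± 0.39), the endothelin gene Edn3 (1.06 ± 0.17) and the mucin gene Muc1 (0.63 ± 0.21). The call of Muc1 was lost without knockout library 5, 6 or 8, or floxed library 1, 2 or 9 (adjusted p from 0.0537 to 0.0971). Under vehicle Gata2 and Hoxa11 also fell, by 0.37 and 0.55, and Bmp2 and Edn3 also rose, by 0.72 and 1.25. No change with treatment was called for these genes (limma adjusted p = 0.969, 0.876, 0.944 and 0.78). Muc1 was level under vehicle (log2 fold change 0.08), but its change with treatment was not called either (limma adjusted p = 0.319). The list was chosen with earlier results of these data known.

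Uterine gland genes split. Of 12 tested, 3 rose and 4 fell, with a median of −0.19. Under vehicle 3 rose and 7 fell (median −0.38), and the difference with treatment was called for 1. Foxa2, the transcription factor of gland cells, was 3.17, 1.65, 2.77 and 2.15 RPKM in floxed and 0.602, 0.779, 0.626 and 1.3 RPKM in knockout libraries (adjusted p = 0.019). That call was lost without knockout library 4 or floxed library 1 (adjusted p = 0.0505 and 0.0546). Wfdc3, a secreted protease inhibitor gene, fell by 1.52 ± 0.34 (adjusted p = 0.00304, and 0.0563 in the fit of 8 libraries), beside Cxcl15 and Ttr. The WNT-response receptor gene Lgr5, which marks budding epithelium, was 5.96, 5.14, 6.49 and 6.02 RPKM in floxed and 34.3, 30.8, 17.8 and 17.6 RPKM in knockout libraries, with no overlap. Lif, the cytokine gene needed for implantation, rose from 0.357 ± 0.0646 to 1.05 ± 0.301 RPKM, beside Aldh1a1.

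**Figure D2:**
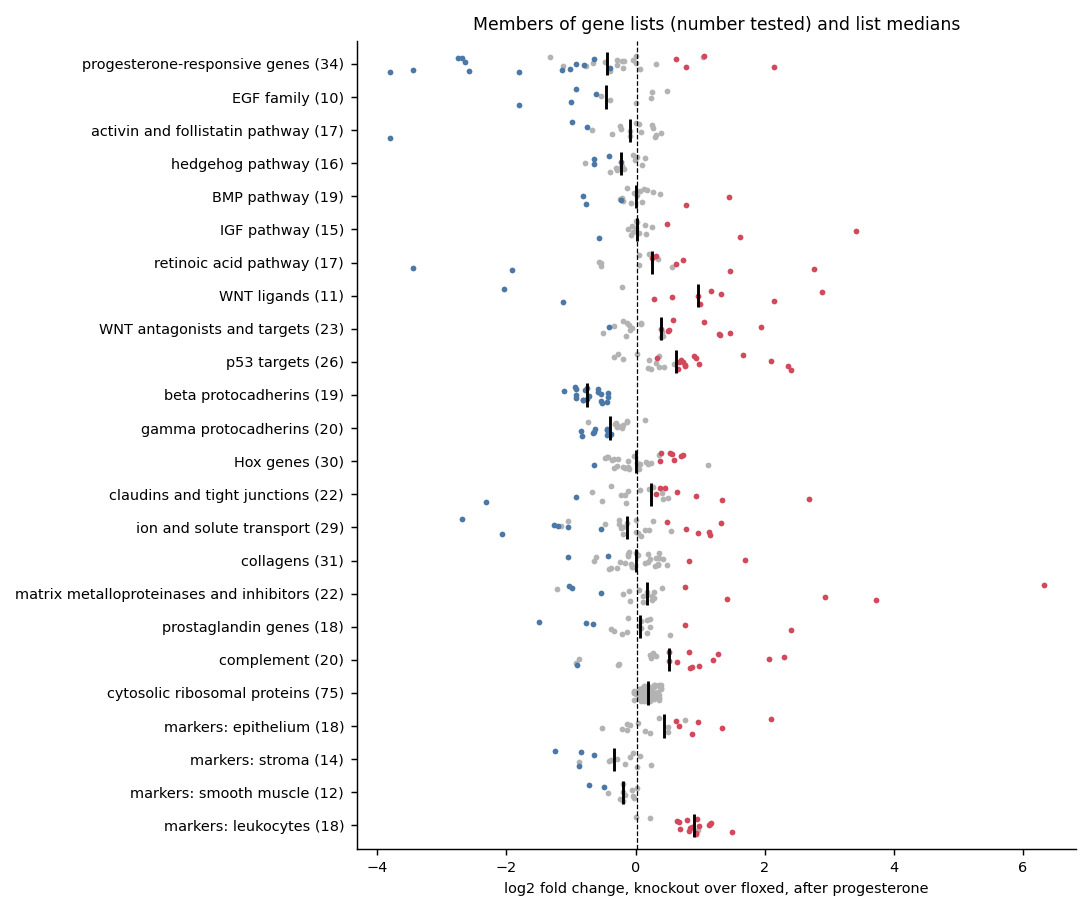
Log2 fold change, knockout over floxed after progesterone (horizontal axis), of the tested members of 24 gene lists (vertical axis, number tested in brackets); red points passed as higher, blue as lower, grey did not pass, black bars are list medians and the dashed line is the median of all tested genes, 0.03. All 19 beta protocadherins lie to the left, while the medians of WNT ligands and p53 targets are 0.97 and 0.62.

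The genes with the highest fold changes were mostly near 0 in floxed uteri. Klk10, which encodes a kallikrein protease, was 0.501, 0.816, 2.38 and 1.28 RPKM in floxed and 38.7, 58.8, 35.4 and 42.4 RPKM in knockout libraries. The groups were far apart, and vehicle knockouts were also high, at 16.3 to 64.5 RPKM. The difference was larger after progesterone, by 1.75 ± 0.42 (adjusted p = 0.0236). Mnd1, a gene of meiotic recombination, was 2.33, 1.94, 1.66 and 2.03 RPKM in floxed and 19.7, 18.0, 14.8 and 28.7 RPKM in knockout libraries. Its log2 fold change was 3.03 ± 0.14 after progesterone (adjusted p = 1.86e-12) and 2.01 under vehicle, and these differed (adjusted p = 0.00112).

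Krt17, a keratin gene of stressed and squamous epithelium, lay between −0.252 and −0.0793 RPKM in floxed libraries and at 6.9, 12.2, 17.6 and 12.7 RPKM in knockouts. Rec8, the meiotic cohesin gene, lay between −1.96 and −0.519 RPKM in floxed libraries and at 3.91, 18.4, 23.6 and 7.28 RPKM in knockouts. A2m, which encodes a protease-trapping plasma protein, lay between −10.5 and −0.589 RPKM and at 56.2, 39.3, 14.8 and 72.6 RPKM. Values below 0 give no usable fold, so these 3 genes are given by their differences in mean RPKM, 12.5 for Krt17, 14.6 for Rec8 and 49.7 for A2m. Tested on the RPKM scale, A2m missed the threshold (adjusted p = 0.0656). Other called genes with values below 0 gained 8.5 RPKM (the protease gene Mmp7), 3.51 RPKM (Mmp12), 5.69 RPKM (Atg9b), 11.6 RPKM (Mal2), 14.9 RPKM (the lipoxygenase gene Alox15) and 9.73 RPKM (Dio2). Dio2, the gene of the enzyme that activates thyroid hormone, missed the threshold on the RPKM scale (adjusted p = 0.527). For Alox15 alone among these 9 genes did the groups overlap, since floxed library 7 stood at 11.8 RPKM and knockout library 4 at 7.24 RPKM.

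Genes with the largest gains in RPKM were abundant in floxed uteri already. Wfdc2, a secreted protein gene of epithelium, was 200, 185, 234 and 240.0 RPKM in floxed and 394, 439, 338 and 548 RPKM in knockout libraries. Plat, the tissue plasminogen activator gene, rose 3.47-fold, from 40.9 ± 17.6 to 135 ± 21.8 RPKM. Lbp, which encodes a protein that binds bacterial lipopolysaccharide, rose 3.07-fold, from 58.8 ± 17.6 to 178 ± 27.9 RPKM. The annexin gene Anxa1 rose from 70.9 ± 28.6 to 168 ± 30.8 RPKM and the lactate dehydrogenase subunit gene Ldhb from 74.8 ± 2.42 to 142 ± 34.5 RPKM. In each of these 5 genes every knockout library was above every floxed library, and each was higher in knockouts under vehicle as well.

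Other genes were higher in knockouts after progesterone with little difference under vehicle. Raet1e, a gene of NKG2D ligands with near-identical neighbours that share reads, was 4.25, 5.05, 3.06 and 2.96 RPKM in knockouts and at most 0.48 RPKM in floxed libraries. Under vehicle its medians were 0.263 RPKM in floxed and 0.376 RPKM in knockout libraries. Tnni1, the slow skeletal troponin I gene, was 4.96, 4.76, 2.42 and 3.85 RPKM in knockouts, at most 0.356 RPKM in floxed libraries, and at most 0.781 RPKM in any vehicle library. The changes with treatment were 2.38 ± 0.25 and 2.24 ± 0.25 (adjusted p = 9.55e-06 and 1.79e-05). Pacsin3, an endocytosis gene, reversed: it was 17.3 to 20.4 RPKM in floxed and 31.5 to 33.6 RPKM in knockout libraries after progesterone, while vehicle medians were 28.3 and 22.1 RPKM.

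**Figure D3:**
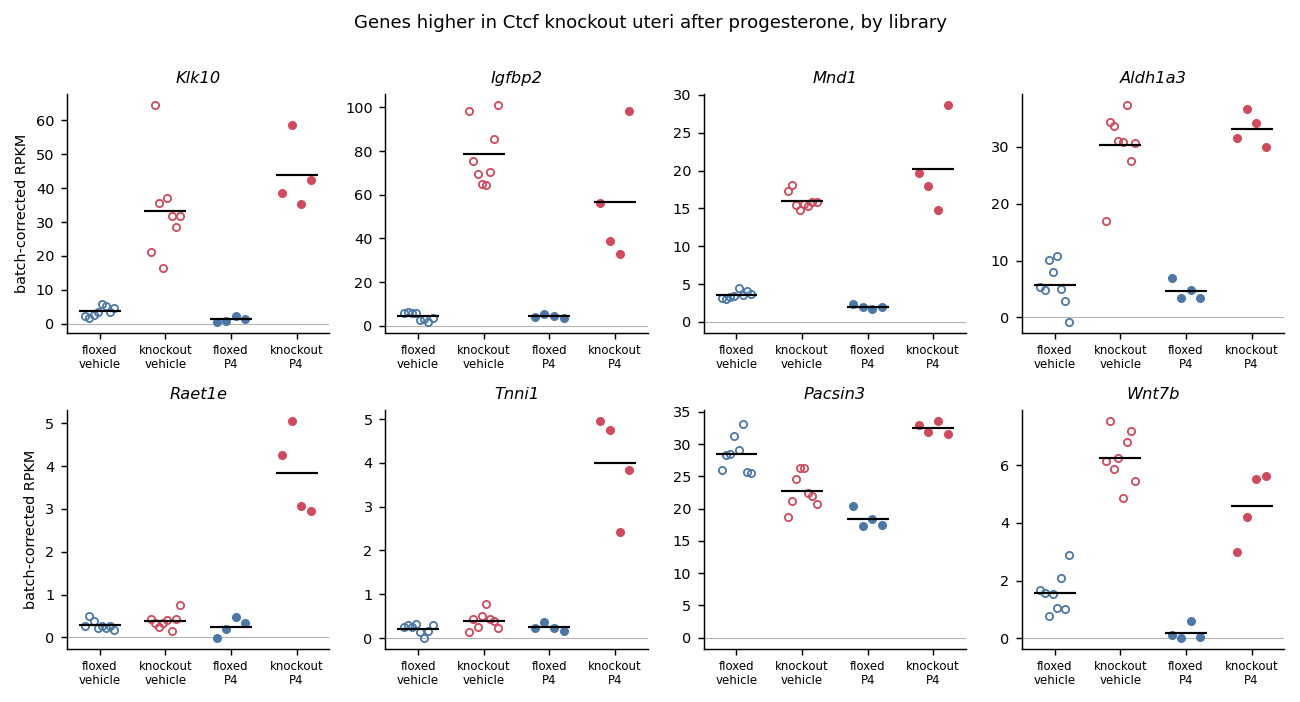
Batch-corrected RPKM (vertical axis) of 8 genes higher in knockouts, by group on the horizontal axis (P4, progesterone); open circles are vehicle libraries (n = 8 each), filled circles progesterone libraries (n = 4 each), and bars are means. Klk10, Igfbp2, Mnd1, Aldh1a3 and Wnt7b are high in knockouts with and without hormone, while Raet1e and Tnni1 stand out in the knockout progesterone libraries.

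Over all genes the genotype difference after progesterone was set beside that under vehicle, which rests on other libraries and called 3516 genes (24.6%). Of the 1758 higher genes 1064 were also higher under vehicle, which is 60.5% of the progesterone list and 56.7% of the vehicle list of 1878 (13.1% of tested genes). Of the 1009 lower genes 542 were also lower, which is 53.7% of that list and 33.1% of the vehicle list of 1638 (11.5%). Opposite calls were rare, 26 and 24 genes. The test of the difference between the 2 genotype differences called 355 genes (2.49%), 208 above 0 (1.46%) and 147 below 0 (1.03%). It called 127 of the 1009 lower genes and 137 of the 1758 higher genes with the same sign as their change. A gene called with one treatment and not with the other is thus mostly not shown to differ between treatments.

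**Figure D4:**
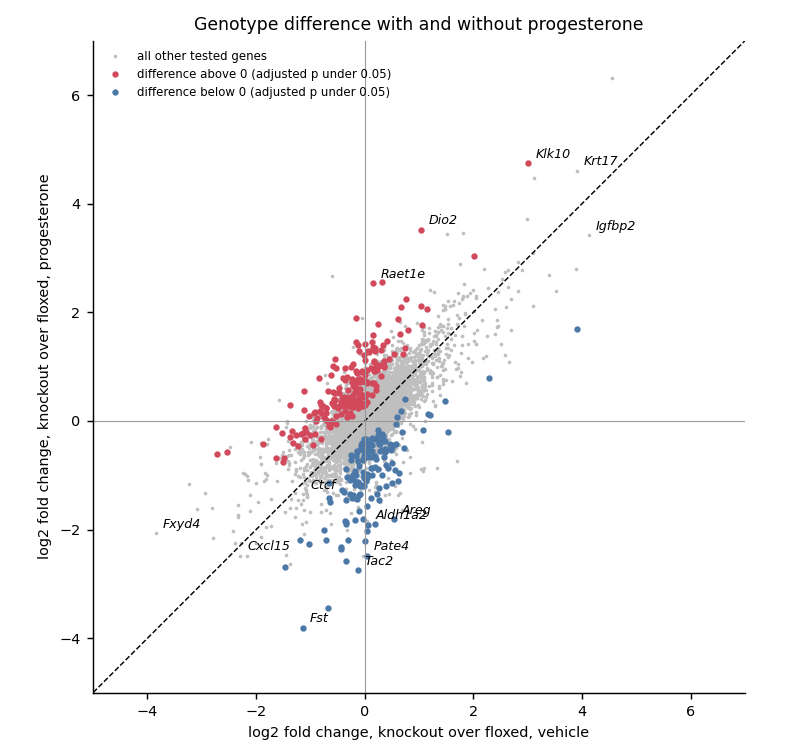
Log2 fold change, knockout over floxed, under vehicle (horizontal axis) and after progesterone (vertical axis), 1 point per tested gene; the dashed line marks equal values, and coloured points are the 355 genes whose 2 differences were unequal at an adjusted p under 0.05. Tac2, Areg, Aldh1a2 and Pate4 lie far below the line, at vehicle values from −0.13 to 0.54.

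WNT ligands, secreted signals that pattern the uterine epithelium and its glands, moved in both directions, more of them up. Of 11 tested, 8 rose and 2 fell, with a median of 0.97, and 8 of the 11 also rose without floxed library 7 and knockout library 8. Under vehicle 3 rose and 3 fell (median −0.23), and the difference with treatment was called for 3. Wnt7a, expressed by luminal epithelium, was 2.62, 2.01, 3.47 and 3.63 RPKM in floxed and 4.34, 8.29, 12 and 9.08 RPKM in knockout libraries. Wnt7b was 0.119, 0.0259, 0.601 and 0.0648 RPKM in floxed and 2.99, 4.22, 5.51 and 5.64 RPKM in knockout libraries. Wnt9a rose 2.25-fold. In these 3 genes no values overlapped. The ligand genes that fell were Wnt11, from 10.4 ± 3.27 to 2.17 ± 0.829 RPKM, and Wnt2b, by 1.13 ± 0.30 on the log2 scale (adjusted p = 0.0105, and 0.11 without floxed library 7 and knockout library 8).

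Of 23 tested WNT antagonists and target genes, 9 rose and 1 fell (median 0.39), against 7 and 0 without floxed library 7 and knockout library 8. Under vehicle 9 rose and 7 fell. The secreted antagonists Dkk2, Dkk3 and Notum rose 2.47-, 2.45- and 2.77-fold (adjusted p = 3.7e-05, 7.5e-06 and 0.000127). Dkk3 was 15.0, 9.96, 19.7 and 11 RPKM in floxed and 33.5, 35.8, 32.5 and 32.6 RPKM in knockout libraries. Dkk2 rose more after progesterone than under vehicle, by 1.00 ± 0.24 (adjusted p = 0.0213). Tcf7, a transcription factor at the end of the pathway, rose from 10 ± 0.921 to 14.6 ± 0.477 RPKM. The receptor gene Lgr4 fell by 0.41 ± 0.12 (adjusted p = 0.0192), a call lost without knockout library 8 or floxed library 1 or 7 (adjusted p = 0.0586, 0.0526 and 0.0805).

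Targets of p53, the factor that halts or kills damaged cells, rose in 14 of 26 tested genes and fell in 0, with a median of 0.62. The sum was 342 to 371 RPKM in floxed and 483 to 565 RPKM in knockout libraries, with no overlap. Under vehicle 17 rose and 1 fell. Cdkn1a, the cell cycle inhibitor p21, was 9.71, 6.19, 7.87 and 5.09 RPKM in floxed and 30.4, 41.3, 44.8 and 42.2 RPKM in knockout libraries. The death-promoting gene Pmaip1 rose 5.13-fold. Eda2r, a gene of the TNF receptor family, rose from 3.43 ± 0.287 to 7.43 ± 1.6 RPKM, more than under vehicle (change with treatment 0.64 ± 0.17, adjusted p = 0.0392). Of 31 cell cycle genes 0 rose and 1 fell, beside 12.3% higher and 7.06% lower among all tested genes. The gene that fell was Ccnd2, cyclin D2, by 0.51 ± 0.17 (adjusted p = 0.0432). That call was lost without knockout library 4, 5 or 8, or floxed library 1, 7 or 9 (adjusted p from 0.0558 to 0.162). The cell cycle genes summed to 350 RPKM in floxed library 1, against 561 to 805 RPKM in the other floxed and 457 to 669 RPKM in knockout libraries.

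Of 20 genes of the integrated stress response, which slows translation under amino acid or protein-folding stress, 3 rose and 1 fell (median −0.11). Among all tested genes 12.3% were higher and 7.06% lower, so these counts are near the background. Trib3, a pseudokinase gene, gained 2.56 RPKM (adjusted p = 0.00277, and 0.195 on the RPKM scale), Ddit3 rose by 0.54 ± 0.14 (adjusted p = 0.00794, and 0.0593 without floxed library 7 and knockout library 8) and Chac1 by 0.72 ± 0.25. The call of Chac1 (adjusted p = 0.0438) was lost without any 1 of knockout libraries 4, 5, 6 and 8 or floxed libraries 2, 7 and 9 (adjusted p from 0.0547 to 0.153). Cth, which makes cysteine, was 14.9, 16.4, 15.4 and 17.5 RPKM in floxed and 10.2, 9.92, 7.85 and 12.2 RPKM in knockout libraries. Under vehicle it was higher in knockouts by 0.35, so its difference changed sign (adjusted p = 0.000544 for the change). Without knockout library 8, 2 of the 20 fell, and without floxed library 7 as well, 1 rose and 2 fell. Among 21 immediate early genes 1 fell and 0 rose. It was Nr4a3, an orphan nuclear receptor gene, at 2.08, 1.65, 2.58 and 1.74 RPKM in floxed and 0.437, 0.286, 0.374 and 0.295 RPKM in knockout libraries, and level under vehicle (log2 fold change 0.05, adjusted p = 0.836).

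Protocadherins, adhesion proteins whose tandem gene arrays are known for CTCF-dependent promoter choice, fell. All 19 tested beta genes fell (median −0.75), and for all 19 the knockout values lay below the floxed values. Without floxed library 7 and knockout library 8, 17 fell. Pcdhb16 was 1.39, 1.78, 1.56 and 1.65 RPKM in floxed and 0.607, 0.576, 0.495 and 0.236 RPKM in knockout libraries. Pcdhb20 fell from 2.25 ± 0.285 to 0.954 ± 0.109 RPKM. Of 20 tested gamma genes 10 fell and 0 rose (median −0.39), or 15 under quantile normalization and 7 without floxed library 7 and knockout library 8, with Pcdhga1 at 1.51 ± 0.231 in floxed and 0.628 ± 0.0955 RPKM in knockout libraries. Under vehicle all 19 beta genes fell as well (median −0.83), and of the gamma genes 16 fell and 1 rose (median −0.55). The difference with treatment was called for 0 genes of either list. Beta genes are close copies, and gamma genes share exons, so reads may be split among neighbours.

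Hox genes, which set position along the reproductive tract and sit in clusters with CTCF sites, were called in part. Of 30 tested Hox genes 7 rose and 1 fell (median 0.00), and 2 fell without floxed library 7. The 7, of which 5 lie in the D cluster, comprised Hoxd3, Hoxd8, Hoxd9, Hoxd10, Hoxd11, Hoxb8 and Hoxb9, and the 1 was Hoxa11. Hoxd8 was 17.9, 18.6, 16.4 and 17.5 RPKM in floxed and 29.9, 27.7, 26.8 and 35.4 RPKM in knockout libraries. Hoxd3 rose from 10.1 ± 1.26 to 16.7 ± 1.77 RPKM, Hoxd10 from 38.2 ± 3.34 to 55.5 ± 4.3 RPKM and Hoxb9 from 3.5 ± 0.292 to 5.53 ± 0.495 RPKM. None of these 4 overlapped between groups, and all 4 were higher under vehicle too.

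Markers of epithelium rose in 6 of 18 tested genes and fell in 0 (median 0.43), while under vehicle 3 rose and 8 fell. Epcam, the epithelial adhesion molecule, rose from 30.0 ± 9.38 to 54.3 ± 7.1 RPKM. The whole marker list summed to 483 to 770 RPKM in floxed and 637 to 850 RPKM in knockout libraries, so these ranges overlapped. Stroma markers fell in 4 of 14 tested genes and rose in 0 (median −0.33): Pdgfra from 44.0 ± 5.62 to 24.1 ± 5.1 RPKM, Vcan from 12.4 ± 4.68 to 4.67 ± 0.847 RPKM, Hoxa11, and Mme by 0.85 ± 0.28. The call of Mme was lost without knockout library 8 or floxed library 1, 7 or 9 (adjusted p from 0.0535 to 0.148). Without knockout library 8 or floxed library 1, 1 stroma marker rose. Stroma markers summed to 1490 to 2020 RPKM in floxed and 1260 to 1930 RPKM in knockout libraries. The part of tissue composition in the changes of epithelial and stromal genes was not tested.

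Claudins and tight junction genes, which seal epithelium, rose in 7 of 22 tested genes and fell in 2 (median 0.24), and 4 rose without floxed library 2. Cldn4 was 28.1, 18.5, 24.5 and 24.5 RPKM in floxed and 70.7, 66.4, 47.2 and 61.4 RPKM in knockout libraries. Cldn6, a claudin of embryonic epithelium, was 1.17 to 1.2 RPKM in floxed and 7.18 to 14.6 RPKM in knockout libraries. Its floxed values went down to −1.03 RPKM under vehicle, and whether the floxed level here is only an added constant was not tested. Cldn8 fell from 6.23 ± 1.95 to 2.97 ± 0.51 RPKM, beside Cldn2. Of 29 ion and solute transport genes, which set the fluid of the uterine lumen, 6 rose and 6 fell (median −0.14). Slc4a4, a bicarbonate transporter gene, fell from 7.36 ± 2.25 to 2.84 ± 0.386 RPKM and was level under vehicle (change with treatment −1.18 ± 0.21, adjusted p = 0.00237). Fxyd6, a pump regulator, rose from 16.9 ± 2.82 to 33.2 ± 2.07 RPKM. The iron exporter gene Slc40a1 rose from 0.998 ± 0.162 to 3.38 ± 1.17 RPKM, a call lost on the RPKM scale (adjusted p = 0.143).

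Matrix proteases moved in both directions. Of 22 tested proteases and inhibitors 5 rose and 3 fell (median 0.18), beside 12.3% higher and 7.06% lower among all tested genes. Mmp7, Mmp12 and A2m were described above, and Mmp10 rose by 1.41 ± 0.32 and Adamts5 by 0.76 ± 0.16. Adamts1, a protease of ovulation and uterine matrix, was 44.8, 52.3, 46.7 and 42.2 RPKM in floxed and 23.5, 20.2, 24.9 and 23.8 RPKM in knockout libraries. Adamts9 was 24, 26.0, 23.5 and 24.9 RPKM in floxed and 16, 13.3, 9.48 and 9.44 RPKM in knockout libraries. Neither overlapped, and both differences changed with treatment (adjusted p = 0.00422 and 0.00978). Mmp19 fell by 0.53 ± 0.17, a call lost without knockout library 4 or 5, or floxed library 7 or 9 (adjusted p from 0.0662 to 0.118).

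Of 31 tested collagens, the fibre and sheet proteins of matrix, 2 rose and 2 fell after progesterone, against 14 and 1 under vehicle, and for 3 the difference with treatment was called. Col12a1 was 8.09, 16.7, 17.4 and 16.3 RPKM in floxed and 8.22, 6.1, 6.95 and 5.04 RPKM in knockout libraries, where floxed library 1 overlapped the knockouts. Col6a5 rose from 2.14 ± 0.119 to 8.24 ± 1.83 RPKM (adjusted p = 0.00987, but 0.0927 with a pseudocount of 0.1 and 0.0523 on the RPKM scale). Its floxed values went down to −0.923 RPKM under vehicle, and whether its floxed level is only an added constant was not tested. Col6a4 (adjusted p = 0.0274) lost its call without knockout library 4, 5 or 8, or floxed library 1, 7 or 9 (adjusted p from 0.0523 to 0.0917). Col15a1 (adjusted p = 0.0483) lost its call without knockout library 4, 5 or 6, or floxed library 2, 7 or 9 (adjusted p from 0.0594 to 0.176). Without knockout library 6, 4 collagens rose. The shares over all tested genes were 12.3% higher and 7.06% lower after progesterone.

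Prostaglandin genes, whose products act on uterine muscle and implantation, included 2 that rose and 3 that fell among 18 tested (median 0.07). The shares over all tested genes were 12.3% higher and 7.06% lower. Ptgds, the prostaglandin D synthase gene, was 5.76, 4.06, 7.65 and 4.73 RPKM in floxed and 38.3, 38.2, 19.8 and 30.4 RPKM in knockout libraries (adjusted p = 0.00479, and 0.06 with a pseudocount of 0.1). The receptor gene Ptgfr was 7.99, 7.37, 8.33 and 8.23 RPKM in floxed and 2.21, 2.88, 3.65 and 1.62 RPKM in knockout libraries. Neither gene overlapped between groups, and both differed under vehicle in the same direction. The receptor gene Ptger4 fell from 14.5 ± 1.57 to 8.36 ± 0.891 RPKM, less than under vehicle (change 0.74 ± 0.15, adjusted p = 0.00788). Ptger2 rose from 1.39 ± 0.493 to 2.64 ± 0.172 RPKM and was lower in knockouts under vehicle, by 0.37 (adjusted p = 0.0332, and 0.00444 for the change). Ptger3 fell by 0.66 ± 0.20, a call lost without knockout library 5 or 6, or floxed library 1 or 2 (adjusted p from 0.0536 to 0.0693).

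Immune genes were higher on average in knockouts and spread widely among them. Of 18 tested leukocyte markers 15 rose and 0 fell (median 0.91), and the knockout values lay wholly above the floxed values for 3, beside 11.8% of all tested genes. The count of 15 fell to 8 without knockout library 6 and to 7 without floxed library 2. Under vehicle 16 of the 18 rose and 0 fell (median 0.79), and the difference with treatment was called for 0. Fcer1g, a receptor subunit of macrophages and mast cells, was 10.7, 9.7, 14.3 and 13.6 RPKM in floxed and 14.7, 23.7, 45.4 and 33.4 RPKM in knockout libraries. Cd68, a macrophage marker, was 7.59, 8.34, 11.3 and 10.1 RPKM in floxed and 13.2, 20.3, 17.3 and 23 RPKM in knockout libraries. Knockout library 4 was the lowest knockout for both. The summed level of the 24 leukocyte markers was 153 to 261 RPKM in floxed libraries and 231, 389, 568 and 534 RPKM in knockout libraries 4, 5, 6 and 8, with the B cell marker Ms4a1 at 0.1 RPKM or less in all 8.

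Complement genes rose in 11 of 20 tested and fell in 1, C1ra, by 0.90 ± 0.23 (median 0.52). Cfb, complement factor B, was 1.81, 1.77, 3.72 and 2.58 RPKM in floxed and 3.7, 9.91, 26.2 and 17.4 RPKM in knockout libraries. Knockout library 4 overlapped the floxed range for Cfb. Cfi, complement factor I, gained 3.65 RPKM with no overlap. Antigen presentation genes rose in 7 of 21 tested and fell in 0 (median 0.57). Tap1, the peptide transporter gene, rose from 5.81 ± 0.432 to 9.99 ± 2.75 RPKM, and Tapbp from 46.9 ± 4.82 to 63.1 ± 4.51 RPKM. Interferon-stimulated genes rose in 8 of 30 and fell in 0 (median 0.68), with Ifit1 at 2.49, 1.24, 1.6 and 1.71 RPKM in floxed and 2.58, 3.88, 12.8 and 6.51 RPKM in knockout libraries. These 2 counts turned on single libraries. Without knockout library 4, 16 antigen presentation and 19 interferon genes rose, and without knockout library 6 they were 4 and 5. Without floxed library 2 or floxed library 9, 5 interferon genes rose. Rises were seen under vehicle too: 11 complement genes rose and 2 fell, and 10 antigen presentation genes rose and 0 fell. Of the interferon genes 13 rose and 1 fell there. The difference with treatment was called for 0 members of each of these lists. How far more leukocytes, or more RNA in them, account for the levels of immune genes was not tested.

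**Figure D5:**
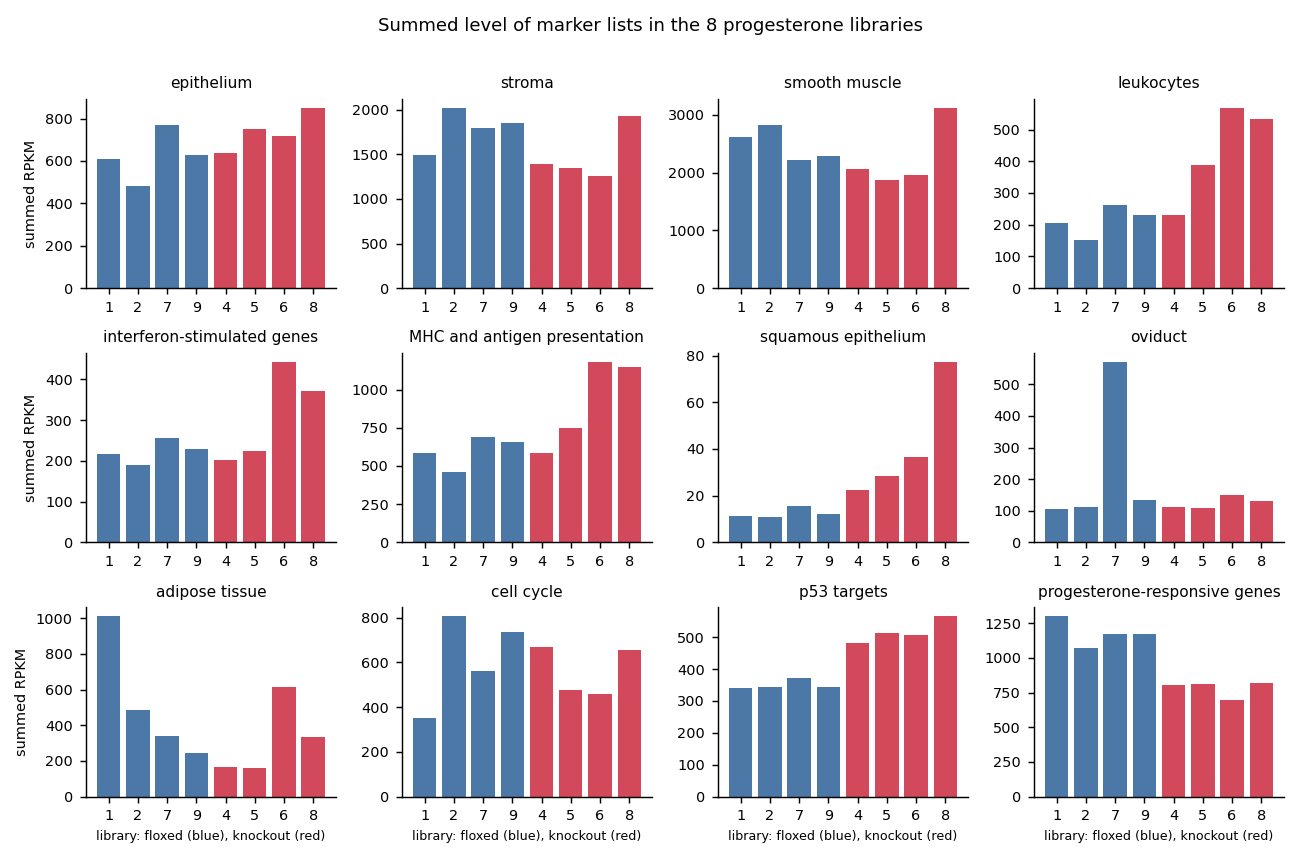
Summed RPKM (vertical axes, from 0, values below 0 counted as 0) of 12 gene lists in the 8 progesterone libraries (horizontal axes, library number; floxed in blue, knockout in red). Sums of progesterone-responsive genes and p53 targets do not overlap between groups, leukocyte and antigen presentation sums are highest in knockout libraries 6 and 8, and oviduct and squamous sums stand apart in floxed library 7 and knockout library 8.

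Of 12 tested smooth muscle markers 2 fell and 0 rose (median −0.19), beside 7.06% lower among all tested genes, and both calls depended on single libraries. Synpo2, an actin-bundling protein gene, fell from 88.4 ± 4.82 to 63.5 ± 10.7 RPKM (adjusted p = 0.0133, and 0.0563 without knockout library 6). Myocd, the master regulator of muscle genes, fell by 0.72 ± 0.21 (adjusted p = 0.0212), a call lost without knockout library 8 or floxed library 1 or 2 (adjusted p from 0.0517 to 0.0678). The endothelial marker Egfl7 rose by 0.29 ± 0.10 as 1 of 14, beside 12.3% higher among all tested genes. Its call was lost without knockout library 4, 5 or 8, or floxed library 2, 7 or 9 (adjusted p from 0.0507 to 0.118). Squamous markers rose in 2 of 9 tested, Krt17 and Lor, and Lor, loricrin, rose from 1.61 ± 0.0597 to 6.37 ± 1.42 RPKM (adjusted p = 0.00326, and 0.0584 with a pseudocount of 0.1). Knockout library 8 was not the highest of the knockouts for either gene. Floxed values of Lor went down to −0.285 RPKM under vehicle, and whether its floxed level is only an added constant was not tested.

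Uchl1, a deubiquitinase gene listed as a nerve marker, was 5.02, 6.92, 5.33 and 6.34 RPKM in floxed and 38.3, 30.6, 25.1 and 36.2 RPKM in knockout libraries. It was the 1 nerve marker called of 8, beside 12.3% higher and 7.06% lower among all tested genes. Its vehicle medians were 4.75 and 21.2 RPKM. Cyp11a1, the first enzyme of steroid synthesis and an ovary marker, rose from 0.183 ± 0.0381 to 1.06 ± 0.28 RPKM, while 6 defining ovary markers, Cyp19a1, Fshr, Nr5a1, Cyp17a1, Oosp1 and Lhcgr, were at 0.1 RPKM or less in all 8 libraries. The skeletal muscle marker Tnni2 fell by 1.39 ± 0.42 (adjusted p = 0.024), a call lost without knockout library 4, 5 or 6 or floxed library 2 (adjusted p from 0.0615 to 0.0811). It was the 1 of 6 tested skeletal muscle markers to fall, while 3 fell without knockout library 8, whether or not floxed library 7 was left out too, and 4 fell under vehicle. Several lists held no called gene in limma. Of 19 clock genes, 21 cholesterol synthesis genes, 75 ribosomal protein genes, 7 oviduct, 10 adipose and 5 red blood cell markers, 0 passed, while 3, 2, 4, 0, 0 and 0 had an unadjusted p under 0.05. The clock gene with the smallest p was Clock (floxed mean 12.8 ± 0.541 RPKM, knockout mean 10 ± 2.28 RPKM, adjusted p = 0.061). Single libraries moved these counts: 2 clock genes fell without knockout library 6 and 1 without floxed library 2, while 2 cholesterol genes fell without floxed library 1 and 1 rose without floxed library 2. Under quantile normalization 3 ribosomal protein genes rose.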

How the data were processed

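Uterine RNA was sequenced from 24 samples, of which the 8 progesterone libraries were compared. Tools named in the submitters' processing notes are Partek, TopHat and cutadapt 2.7, and the build is mm10. For the counting tool, the batch-correction tool, the annotation and the strand setting, names were not given in the sources used here. What the authors deposited is batch-corrected RPKM, as the deposited file is titled. Because 6.66% of its values lie below 0, it is not plain RPKM, and no count test was used. In the batch of these 8 libraries, the lowest value of 3783 genes was shared between libraries and moved off 0 in most, as a constant added to each gene would do. Depth was estimated from the spacing of low values.

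Genes with at least 1 RPKM in at least 4 of 24 libraries were tested (14284 of 22943). Values below 0 were set to 0 for the log scale and log2(value + 0.5) was fitted with limma 3.58.1 in R 4.3.3, with 4 groups (genotype by treatment) and a batch term (19 residual degrees of freedom), trended and robust variances, and Benjamini-Hochberg adjustment over all tested genes at 0.05. Fold changes are on this scale. The added 0.5 shrinks those of low genes, while the handling of values below 0 can move them either way. The difference between the genotype differences under progesterone and vehicle was a contrast of the same fit. Means, SDs and permutation tests used RPKM. On simulated data of 14284 genes for the progesterone comparison, 49 of 100 genes changed by 0.5 log2 and 79 of 100 changed by 1 log2 were recovered, with 7 false calls. Far fewer genes were changed there than were called in the data. The adjustment depends on that share, so these rates may not carry over. The number of libraries and their spread limit the precision. Pandas 2.3.3 and numpy 2.4.6 ran under Python 3.11.15.

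Genes named in the text were the 12 highest and 12 lowest fold changes among called genes (group mean of 1 RPKM or more on the higher side, no predicted gene models), the 6 largest RPKM differences in each direction, the 8 called genes with the smallest p for a change with treatment, up to 4 called members of each list, and Ctcf, Pgr and Esr1. Def8, Slc35b2, Adprhl2, Bmp4, Lif, Wfdc3, Wnt2b, Wnt4, Lgr4, Muc1, Edn3, Mmp10, Adamts5, Mmp19, Ptger3 and C1ra were added after their values were seen. A few genes meeting these criteria are not reported here. The comparison, gene lists and tests were chosen with earlier results of these data known. The replicate numbers of the progesterone groups do not coincide, so they pair none of those 8 libraries. Some numbers recur between the vehicle groups, and between vehicle and progesterone groups. Vehicle libraries 1a and 1b, and 11a and 11b, share a number across batches. Whether such libraries share an animal is not in the labels, and the main fit treated all 24 as separate. Alternatives varied the pseudocount, filters, libraries, scale, normalization, weights and variance model.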

Additional observations from a re-analysis of the deposited data

Results flagged for a closer look

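In 16 of 302 groups of 4 libraries checked, close to the 1 in 20 that chance alone flags, 1 library lay far from the other 3. In knockout library 8 these were Cyp26a1 at 5.1 RPKM (other 3 from 1.25 to 1.76), Ttr at 0.203 RPKM (other 3 from 0.0858 to 0.105), Hbegf at 4.97 RPKM (other 3 from 3.94 to 4.11), Tnni2 at 23.4 RPKM (other 3 from 8.31 to 8.74) and Sufu at 13.3 RPKM (other 3 from 14.6 to 14.8). In knockout library 6 this was Tac2 at 0.092 RPKM (other 3 from 0.404 to 0.465). In floxed library 1 these were Hoxd3 at 12 RPKM (other 3 from 9.34 to 9.61), Col12a1 at 8.09 RPKM (other 3 from 16.3 to 17.4), Adprhl2 at 22.3 RPKM (other 3 from 19.6 to 19.9) and Col15a1 at 103 RPKM (other 3 from 143 to 148). In floxed library 7 these were Mmp7 at −0.784 RPKM (other 3 from −1.68 to −1.62), Wnt7b at 0.601 RPKM (other 3 from 0.0259 to 0.119), Ovgp1 at 380 RPKM (other 3 from −10.7 to 0.156) and Mmp10 at 1.27 RPKM (other 3 from 0.387 to 0.479). In floxed library 9 these were Pdgfra at 52.4 RPKM (other 3 from 40.4 to 42.4) and Hbb-bs at 48.8 RPKM (other 3 from 66.3 to 68.5). Floxed library 7 and knockout library 8 are also those that stand apart in oviduct and in squamous markers, and the part of other tissue in their values was not tested.

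For 37 named genes the genotype difference after progesterone differed from that under vehicle (limma interaction, adjusted p under 0.05). Among all tested genes this held for 355 of 14284 (2.49%). Named genes were chosen in part by the smallest p of this same test and by extreme fold changes after progesterone. The count of 37 therefore says nothing about how common such differences are. Values are the log2 fold change after progesterone minus that under vehicle. Among differences below 0 were −2.75 for Cyp26a1, −2.67 for Fst, −2.62 for Tac2, −2.52 for Pate4, −2.35 for Areg, −2.24 for Hsd11b2, −2.19 for Col6a5, −1.97 for Aldh1a2, −1.93 for Ripor2, −1.88 for Cldn2, −1.60 for Nr4a3, −1.48 for Minar1 and −1.25 for Adgrg2. Smaller differences below 0 were −1.21 for Ttr, −1.18 for Slc4a4, −1.09 for Col12a1, −1.01 for Cth, −0.95 for Igf1, −0.89 for Col15a1, −0.84 for Mmp19, −0.83 for Gli3, −0.82 for Tgfbr3, −0.80 for Adamts9, −0.78 for Hbegf, −0.77 for Adamts1 and −0.63 for Boc. Differences above 0 were 2.47 for Dio2, 2.38 for Raet1e, 2.24 for Tnni1, 1.75 for Klk10, 1.14 for Ptger2, 1.12 for Pacsin3, 1.04 for Pgr, 1.01 for Mnd1, 1.00 for Dkk2, 0.74 for Ptger4 and 0.64 for Eda2r. The value for Dio2 rests on floxed progesterone libraries of which 2 lay below 0, and gives no usable fold. Its floxed and knockout means were 0.37 and 10.1 RPKM after progesterone, and 20.7 and 41 RPKM under vehicle. In RPKM its genotype gap was thus smaller after progesterone. Adjusted p ran from 1.87e-08 for Tac2 to 0.0414 for Cldn2. The vehicle libraries span both library batches, so these differences rest on the batch term of the fit.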

How the results depend on the processing

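Of 144 called genes checked, which are those named here and a few others that the same rule selects, 103 kept their direction and side of the threshold under all 22 alternatives and 114 did so on leaving out each library in turn. None of these 144 reversed. A filter at 5 RPKM left 1123 genes higher, 236 genes whose genotype difference changed with treatment and 2293 genes called under vehicle, with fewer genes tested. A fit of the 8 progesterone libraries alone gave 1163 higher genes from fewer samples. Weights per library gave 7123 called genes, 3813 higher and 3310 lower, 4122 for the change with treatment and 6500 under vehicle; the weights did not converge (11.2 for knockout library 5 and 0.162 for knockout library 8), and the cause was not tested. Leaving out 1 library gave 2151 to 2575 called genes, 1341 to 1669 higher and 746 to 995 lower. The change with treatment was called for 210 genes without knockout library 5 and for up to 441 on leaving out another, against 355. Esr1 passed in the mixed batch alone (adjusted p = 0.0273) and without floxed library 7 and knockout library 8 (adjusted p = 0.0395). The progesterone groups share no replicate numbers, so the numbers pair none of their libraries, while some numbers recur in the vehicle groups. A random replicate block over all 24 libraries (correlation 0.22) gave 2820 called genes. It gave 439 for the change with treatment and 3737 under vehicle. Chac1 and Igf1 lost their calls with the block (adjusted p = 0.0817 and 0.061) while Esr1 gained a call (0.0387). Depth was an estimate, so no counting interval is given, and fold changes of genes near 0 RPKM are not reliable.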
